A study of Homo sapiens with 12 samples.

Results

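The genes of the proteasome, the protease complex that degrades ubiquitin-tagged proteins, were followed in 12 RNA-seq libraries of DU145 cells, an established human prostate cancer line that grows without androgen. The members were the protein-coding genes whose symbol begins with PSM, one of the letters A to G and a digit, without PSMB8 and PSMB9, and 46 of the 28747 gene identifiers of the count table met this rule. PSMC3IP and PSME3IP1 share the start of the name, encode no subunit and were left out. The cells carried a control hairpin (shCtrl) or a hairpin against the σ1 receptor (shSigma), and each arm was grown both in adherent bulk culture and in tumor spheres, with 3 libraries in each of the 4 groups. The hairpins were delivered by lentivirus and the cells were kept under puromycin selection, so each arm is a transduced cell population and not a series of independent lines. Which of the hairpins against σ1R the sequenced cells carried is not given in the sources used here. Tumor spheres were grown without attachment in serum-free medium, so culture form and medium differ together. The labels name no other treatment.

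The 26S proteasome is a barrel with a cap at one or both ends. The barrel, or core particle, is built of outer rings of α subunits, which gate the entry, and inner rings of β subunits, of which PSMB5, PSMB6 and PSMB7 carry the active sites. The cap, or regulatory particle, has a base with a ring of ATPases (PSMC genes) that unfold the substrate and a lid (PSMD genes) that removes the ubiquitin chain. Dedicated chaperones assemble core and cap, and other activators (PSME genes) can take the place of the cap. When the activity of the complex falls, cells can raise nearly all of its genes together through the transcription factor NFE2L1, and prostate cancer cells, like other rapidly growing cells, depend on it to clear proteins.

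Most of these genes were lower after σ1R depletion in adherent cells and fewer were lower in tumor spheres. Of the 40 members that could be tested, 27 fell and 1 rose with knockdown in adherent culture, where 27.7% of all genes tested were called lower and 22.3% higher. In spheres 17 fell and 3 rose, where the shares over all genes were 30.9% and 30.2%. PSMB5, the chymotrypsin-like active site, fell most in both cultures, by 2.72-fold in adherent cells and 2.12-fold in tumor spheres. The genes nearest to it on the chromosome were lower too. With their median subtracted its fall was smaller, and it was not the largest in either culture. The remaining 6 members had at most 2 counts in any library and were not tested.

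To give the sequence behind the 4 members with the largest fall in both cultures, by the smaller of their changes, and behind the 3 that rose in tumor spheres (PSMC2, PSMG4 and PSMD5), the 200 bases before the RefSeq transcription start are shown, 5′ to 3′ on the strand of the gene, from the RefSeq promoter table of GRCh38.p14. Capitals mark matches on either strand to the letters CCAAT, a box bound by the factor NF-Y, CCGGAAG, the core bound by ETS factors, and TGACNNNGC, the core of the antioxidant response element that NFE2L1 and NFE2L2 bind. For PSMC2 and PSMG4 the window lies inside the span of the gene in GENCODE release 44, which also lists earlier starts. The windows of PSMB5, PSMC6 and PSMD5 run a short way into the gene span of that release.
PSMB5 (chr14:23035221-23035420, minus strand): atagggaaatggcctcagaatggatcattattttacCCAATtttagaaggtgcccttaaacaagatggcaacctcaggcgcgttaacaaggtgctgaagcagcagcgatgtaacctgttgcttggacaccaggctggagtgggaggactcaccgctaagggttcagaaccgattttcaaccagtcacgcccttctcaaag
PSMA5 (chr1:109426449-109426648, minus strand): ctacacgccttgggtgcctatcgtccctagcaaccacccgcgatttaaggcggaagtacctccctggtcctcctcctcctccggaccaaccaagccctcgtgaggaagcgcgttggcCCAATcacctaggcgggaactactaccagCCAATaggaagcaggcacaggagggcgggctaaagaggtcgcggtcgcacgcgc
PSMC6 (chr14:52707000-52707199, plus strand): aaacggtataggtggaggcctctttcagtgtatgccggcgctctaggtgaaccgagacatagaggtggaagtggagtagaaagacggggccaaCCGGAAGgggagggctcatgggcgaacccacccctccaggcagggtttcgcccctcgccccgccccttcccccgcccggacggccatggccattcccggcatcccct
PSMA3 (chr14:58244643-58244842, plus strand): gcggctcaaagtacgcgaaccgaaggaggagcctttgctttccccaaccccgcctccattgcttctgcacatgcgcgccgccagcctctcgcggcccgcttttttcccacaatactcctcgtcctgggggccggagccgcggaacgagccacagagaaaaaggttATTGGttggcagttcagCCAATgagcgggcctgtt
PSMC2 (chr7:103347443-103347642, plus strand): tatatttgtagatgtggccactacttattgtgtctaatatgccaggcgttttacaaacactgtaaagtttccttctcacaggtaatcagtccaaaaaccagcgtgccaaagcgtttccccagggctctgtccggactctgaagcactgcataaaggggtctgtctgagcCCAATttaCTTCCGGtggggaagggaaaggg
PSMG4 (chr6:3258747-3258946, plus strand): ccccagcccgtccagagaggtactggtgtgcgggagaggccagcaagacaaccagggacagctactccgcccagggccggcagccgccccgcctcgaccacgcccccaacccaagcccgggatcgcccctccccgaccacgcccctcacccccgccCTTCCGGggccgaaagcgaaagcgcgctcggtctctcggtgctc
PSMD5 (chr9:120842923-120843122, minus strand): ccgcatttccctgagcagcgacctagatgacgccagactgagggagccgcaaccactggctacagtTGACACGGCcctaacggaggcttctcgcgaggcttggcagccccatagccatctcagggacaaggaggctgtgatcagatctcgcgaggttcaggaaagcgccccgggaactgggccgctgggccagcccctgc
The table held promoters of 40 of the 46 members, each from 250 bases before to 50 bases after the start, and had no entry for PSMA7, PSMB1, PSMB6, PSMB7, PSMD4 and PSMG3. CCAAT was found in 18 of the 40 (45.0%), against 35.7% of the 27305 promoters of the table. CCGGAAG was found in 13 of the 40 (32.5%), against 10.7% of all promoters and 14.2% of the 15843 promoters of protein-coding genes. TGACNNNGC was found in 12 of the 40 (30.0%), against 13.6% of all promoters. All were searched on both strands, a promoter was counted once for each set of letters, and matches of different sets may overlap. Of the 7 promoters shown, 4 held CCAAT and 3 held CCGGAAG, with both in PSMC2, and PSMD5 held TGACNNNGC. Letters in a window are a description and do not show that a factor binds there.

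The libraries held 16472722 to 26957777 counts. Replicates were farther apart in adherent cells, where the biological coefficient of variation between replicates was 14.4%, than in tumor spheres, where it was 6.89%. The 5 epithelial markers were present in all libraries, with summed levels of 878 to 964 CPM (counts scaled to the effective library size) in adherent shCtrl, 1141 to 1453 CPM in adherent shSigma, 2285 to 2349 CPM in tumor sphere shCtrl and 897 to 954 CPM in tumor sphere shSigma libraries. Single epithelial markers moved in different directions after knockdown in adherent cells, where 2 of 5 were called lower and 3 higher. In tumor spheres 4 were called lower and 0 higher. The shares over all genes were 27.7% and 22.3% in adherent cells and 30.9% and 30.2% in tumor spheres. KRT18 had 321 ± 12.2 CPM with shCtrl and 502 ± 15.2 CPM with shSigma in adherent cells. Its tumor sphere values were 391 ± 18.1 and 289 ± 7.33 CPM. EPCAM fell from 235 ± 26.2 to 30.9 ± 1.37 CPM in adherent cells (mean ± SD, n = 3) and from 613 ± 44.1 to 61.9 ± 1.53 CPM in tumor spheres, and CDH1 (E-cadherin) fell with log2 fold changes of -1.23 (adjusted p = 7.86e-05) and -4.71 (adjusted p = 3.46e-11). KRT19 rose from 92.7 ± 30.4 to 359 ± 119.8 CPM in adherent cells (adjusted p = 0.00573). KLK2 and KLK3, which mark androgen-responsive prostate cells, had at most 3 counts in every group, and with TMPRSS2 they summed to at most 1.06 CPM. Markers of leukocytes summed to at most 2.33 CPM and those of endothelium to at most 1.29 CPM. The 5 fibroblast markers summed to 3.52 to 9.78 CPM in adherent cells, 20.5 to 26.6 CPM in tumor sphere shCtrl and 10.1 to 14.6 CPM in tumor sphere shSigma libraries, and DCN and LUM were at or near 0. The part of these marker levels in the results was not tested. In bulk RNA, fewer cells of a kind and less RNA per cell cannot be told apart.

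The 46 members comprised 7 α and 7 β subunits of the core, 3 tissue-specific core subunits, 9 base and 8 lid subunits, 7 assembly chaperones and 5 regulators, and they lay on 17 chromosomes, with 8 on chromosome 14. Summed over all members, the adherent shCtrl libraries had 6490.1, 5960.2 and 5945 CPM and the adherent shSigma libraries 4383, 4319 and 4753 CPM. The tumor sphere libraries had 5391, 5934 and 5584 CPM with shCtrl and 5029.6, 4679.8 and 4877 CPM with shSigma. The shSigma libraries were below the shCtrl libraries in both cultures, and the gap was wider in adherent cells.

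Levels between genes were compared as CPM per kilobase of the canonical transcript. Medians by role left out members with at most 3 counts in every library, so that 6 of 7 β subunits and 3 of 5 regulators remained. In adherent shCtrl cells the β subunits had the highest median level, 196 CPM per kilobase. The base followed at 77.5 CPM, the lid at 74.0 CPM and the α subunits at 40.6 CPM per kilobase. The assembly chaperones had 36.1 CPM and the regulators 26.8 CPM per kilobase. PSMB4, a non-catalytic β subunit, had the highest level of all members at 403 ± 12.8 CPM per kilobase (SD, n = 3), followed by PSMA3, an outer-ring subunit, at 248 ± 35.4 CPM per kilobase and PSMB7, the trypsin-like active site, at 235 ± 34.1 CPM per kilobase. PSMA3 and PSMB7 did not differ beyond their spread. The α subunits, which stand in 1 copy per ring, had levels that spanned more than a factor of 10, from PSMA2 at 11.3 ± 1.95 CPM per kilobase to PSMA3. Part of that range lies in genes whose transcripts share bases with another annotated gene on the same strand, 100% of the canonical transcript for PSMA2, 81.4% for PSMA6, 67.0% for PSMA1, 56.1% for PSMB10 and 28.8% for PSMD9. On the other strand the shared part was 83.2% for PSMC1 and 51.6% for PSMD7. Whether counting used the strand is not given in the sources used here, so the levels of these genes are uncertain. Pseudogenes are annotated for 17 members, with 13 for PSMC1, 6 for PSME2 and 4 for PSMA6.

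**Figure D1:**
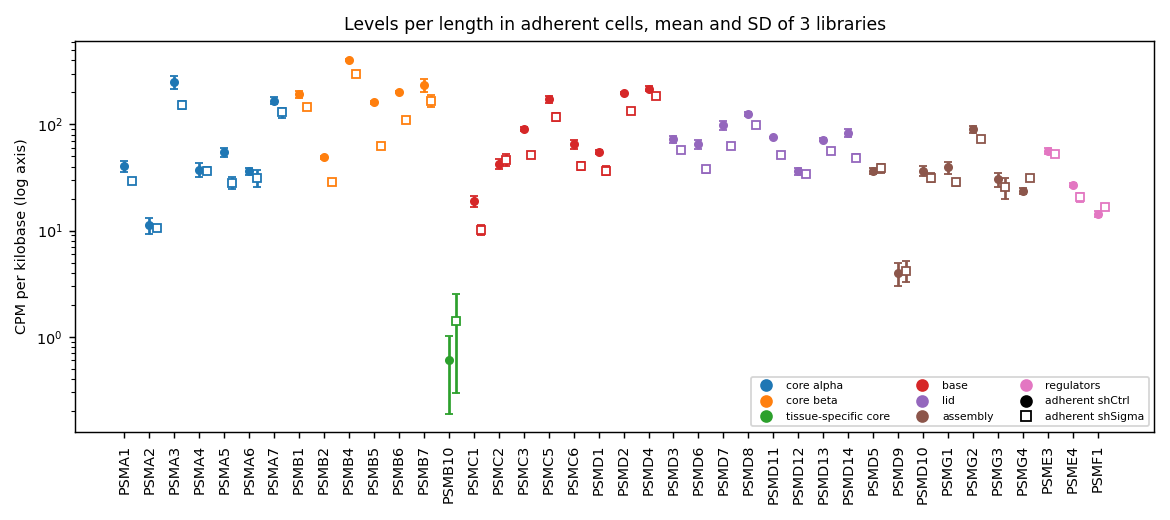
Level of each member in CPM per kilobase of canonical transcript (log axis) in adherent cells, with filled circles for shCtrl and open squares for shSigma, as mean and SD of 3 libraries, colored by role. Genes with at most 3 counts in every library are not drawn. PSMB4 stands highest, at 403 ± 12.8 CPM per kilobase in shCtrl, and PSMB10 lowest, at 0.602 ± 0.413 CPM per kilobase.

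PSMB3, a non-catalytic β subunit, PSMC4, an ATPase of the base, and PSME1 and PSME2, which form the interferon-inducible cap PA28αβ, were listed at 0 in all 12 libraries. PSMB3 lies at ENSG00000277791, chr17:38752741-38764225, plus strand (GRCh38, GENCODE release 44), and 8 of its 12 nearest protein-coding genes had at most 3 counts in every library, as did 9 of 12 for PSMC4 and all 12 of 12 for both PSME1 and PSME2. Over all libraries 2468 protein-coding genes of the study were listed at 0. Why these genes and their neighbours were at 0 was not tested, so the zeros are not read as absence of the transcripts. PSMB8 and PSMB9, the interferon-inducible active sites that the rule left out, were listed at 0 as well. Their partner PSMB10, the inducible form of PSMB7, had 6, 12 and 26 counts in adherent shCtrl, 29, 48 and 6 in adherent shSigma, 22, 13 and 41 in tumor sphere shCtrl and 32, 48 and 38 in tumor sphere shSigma libraries. The groups overlapped, and at this depth no difference of PSMB10 was detectable after knockdown, with log2 fold changes of 1.17 (adjusted p = 0.285) and 0.57 (adjusted p = 0.155). PSMA8, a subunit of the testis, and PSMB11, an active site of the thymic cortex, had at most 2 counts in any library.

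In adherent cells 27 of the 40 tested members (67.5%) were called lower at an adjusted p under 0.05, against 27.7% of the 13764 genes tested. 1 member (2.50%) was called higher, against 22.3% of genes. The median log2 fold change was -0.45 over the tested members and -0.014 over all genes. In tumor spheres 17 of the 40 (42.5%) were called lower, against 30.9% of 13774 genes, and 3 (7.50%) higher, against 30.2%, with medians of -0.16 over the members and 0.0015 over all genes. The same 15 members were called lower in both cultures and PSMG4 was called higher in both. A further 12 members were called lower in adherent cells and not in tumor spheres, and PSMA2 and PSMD10 in tumor spheres and not in adherent cells. These counts do not show that a gene differed between cultures, which is tested by the interaction.

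With single libraries left out, 24 to 29 members were called lower in adherent cells and 14 to 20 in tumor spheres. In adherent cells 5 calls depended on a single library. PSMA7 was lost without shCtrl replicate 2 or 3 (highest adjusted p = 0.0636), PSMB7 without shSigma replicate 1 or 2 (0.0558), PSMG2 without shSigma replicate 1 or shCtrl replicate 2 (0.0667), PSMG4 without replicate 2 of either group (0.0647) and PSMD4 without replicate 1 or 2 of either group (0.134). In tumor spheres PSMA2 was lost without replicate 2 of either group (highest adjusted p = 0.0782), PSMB7 without replicate 2 or 3 of either group (0.0959) and PSMD13 without shSigma replicate 2 (0.0505). The other calls lower in either culture, PSMB5 and PSMA5 among them, were kept.

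**Figure D2:**
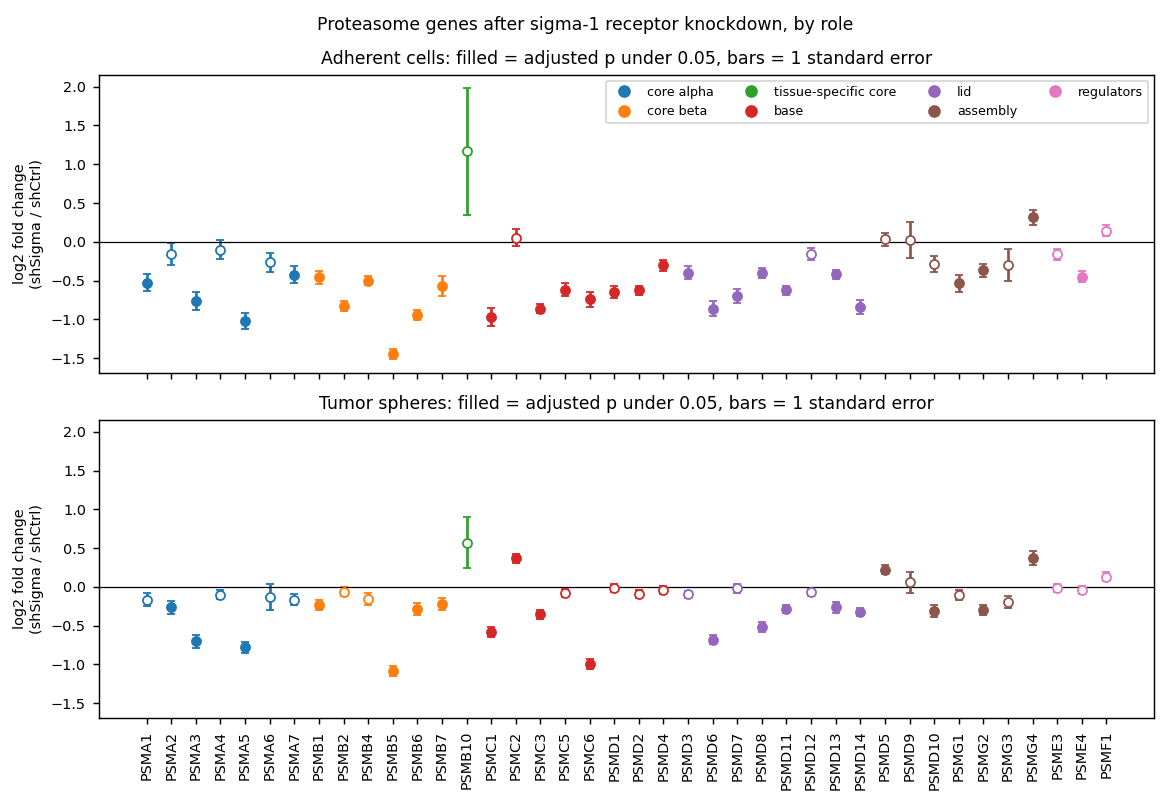
Log2 fold change of each tested member after σ1R depletion (shSigma over shCtrl), with bars of 1 standard error, in adherent cells (upper panel) and tumor spheres (lower panel), ordered and colored by role. Filled points have an adjusted p under 0.05. The 6 tested β subunits are all filled and below 0 in the upper panel, and PSMB5 is the lowest point in both panels.

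All 6 tested β subunits were lower in adherent cells (median -0.70), and 4 of 6 in tumor spheres (median -0.23). These are 100% and 66.7%, against 27.7% and 30.9% of all genes. PSMB5, the target of bortezomib, lies at ENSG00000100804, chr14:23016543-23035230, minus strand. It had 175, 165 and 166 CPM in adherent shCtrl and 64.0, 61.4 and 69.0 CPM in adherent shSigma libraries. It had 134, 160.0 and 142 CPM in tumor sphere shCtrl and 69.4, 66.5 and 70.4 CPM in tumor sphere shSigma libraries. Every shSigma library was far below every shCtrl library in both cultures. Its log2 fold change was -1.45 (SE 0.0649, adjusted p = 7.77e-06) in adherent cells, while the tumor sphere value was -1.08 (SE 0.0667, adjusted p = 8.54e-08).

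PSMB6, the caspase-like active site, had 169, 161 and 166 CPM in adherent shCtrl and 91.8, 88.7 and 89.0 CPM in adherent shSigma libraries. In tumor spheres it had 125, 161 and 142 CPM with shCtrl and 118, 119 and 115 CPM with shSigma. The groups were apart in both cultures, by much less in tumor spheres, with log2 fold changes of -0.94 (SE 0.0638, adjusted p = 3.37e-05) and -0.28 (SE 0.0789, adjusted p = 0.00881). PSMB7, the trypsin-like site, had 269.8, 211 and 213 CPM in adherent shCtrl and 146, 156 and 188 CPM in adherent shSigma libraries, and 149.9, 188 and 162 CPM and 152, 137 and 141 CPM in the tumor sphere groups. It fell in adherent cells, where the groups did not overlap, with a log2 fold change of -0.57 (SE 0.128, adjusted p = 0.00836). In tumor spheres its groups overlapped, and the log2 fold change was -0.22 (SE 0.0766, adjusted p = 0.0249).

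Among the β subunits without an active site, PSMB2 had 222, 210.3 and 217 CPM in adherent shCtrl and 124, 128 and 130.1 CPM in adherent shSigma libraries. The tumor sphere libraries had 133, 152 and 146 CPM with shCtrl and 144, 132 and 139 CPM with shSigma. The shCtrl level of adherent cells stood above the other 3 groups, which lay close together. PSMB2 fell in adherent cells, with a log2 fold change of -0.83 (SE 0.0595, adjusted p = 4.26e-05), and its value in tumor spheres was -0.062 (adjusted p = 0.395), the highest of the β subunits. PSMB1, the highest of them in adherent cells, still fell there, with a log2 fold change of -0.46 (adjusted p = 0.00262), and PSMB4 fell there too, with -0.50 (adjusted p = 4.09e-04).

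Of the 7 α subunits 4 were lower in adherent cells (median -0.42) and 3 in tumor spheres (median -0.16). As shares this is 57.1% and 42.9%, against 27.7% and 30.9% of all genes. PSMA5 had 232, 201 and 191 CPM in adherent shCtrl and 101, 97.9 and 123 CPM in adherent shSigma libraries. In tumor spheres it had 181, 209.7 and 197 CPM with shCtrl and 121, 105 and 116 CPM with shSigma. Its shSigma libraries were all below its shCtrl libraries, and it was the lowest α subunit in both cultures, with log2 fold changes of -1.02 (SE 0.106, adjusted p = 2.12e-04) and -0.78 (SE 0.0670, adjusted p = 1.32e-06). PSMB5 and PSMA5 were the only members with an adjusted p under 0.05 and a change of more than 1 on the log2 scale, PSMB5 in both cultures and PSMA5 in adherent cells.

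PSMA3 had 276, 224 and 212 CPM in adherent shCtrl and 143, 136 and 161 CPM in adherent shSigma libraries, and 235, 288 and 238 CPM and 166, 142 and 161 CPM in the tumor sphere groups. All shSigma libraries were below all shCtrl libraries, with log2 fold changes of -0.76 (SE 0.116, adjusted p = 0.00126) and -0.70 (SE 0.0829, adjusted p = 3.51e-05). PSMA4, by contrast, had 193, 152 and 146 CPM in adherent shCtrl and 153, 154 and 174 CPM in adherent shSigma libraries. These groups overlapped, and its log2 fold change was -0.10 (adjusted p = 0.516) in adherent cells, while the tumor sphere value was -0.098 (adjusted p = 0.179). Subunits of the α ring thus had log2 fold changes in adherent cells from -1.02 (PSMA5) to -0.10 (PSMA4).

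**Figure D3:**
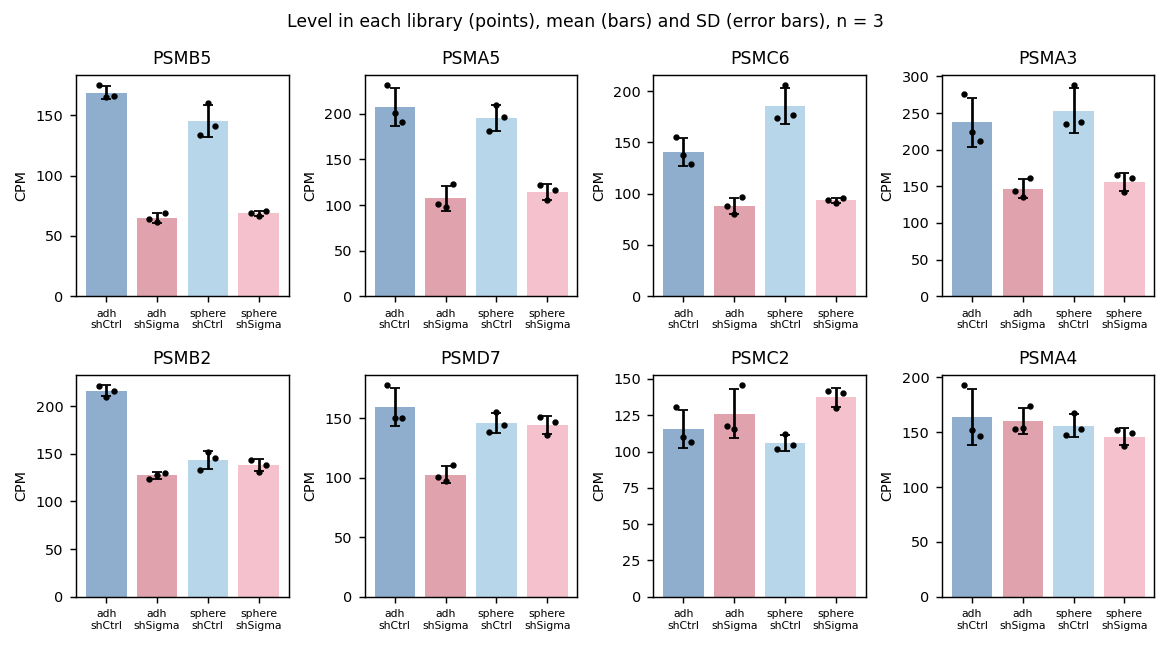
CPM of 8 members in each library (points), with the mean (bars) and SD (error bars) of 3 libraries in adherent (adh) and tumor sphere groups. PSMB5, PSMA5, PSMC6 and PSMA3 are lower with shSigma in both cultures, PSMB2 and PSMD7 in adherent cells, PSMC2 is higher with shSigma in tumor spheres, and the PSMA4 groups overlap.

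In the base 7 of 8 tested genes were lower in adherent cells (median -0.64). In tumor spheres 3 were lower and 1 higher (median -0.084). The share lower was 87.5% in adherent cells, against 27.7% of all genes. For tumor spheres it was 37.5%, not far from 30.9% of all genes, and 12.5% were higher, against 30.2%. PSMC1, an ATPase, had the lowest value of the base in adherent cells, with 95.1, 77.9 and 76.3 CPM in shCtrl and 41.7, 41.8 and 50.4 CPM in shSigma libraries. It had 69.8, 74.3 and 79.3 CPM and 51.7, 48.0 and 50.2 CPM in the tumor sphere groups. Its log2 fold change was -0.96 (SE 0.115, adjusted p = 3.91e-04) in adherent cells, while the tumor sphere value was -0.58 (SE 0.0663, adjusted p = 1.39e-05). Most of its transcript lies opposite NRDE2, and it has 13 annotated pseudogenes.

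PSMC6, another ATPase, was the lowest of the base in tumor spheres. It had 174, 206 and 176 CPM in tumor sphere shCtrl and 93.6, 91.2 and 95.5 CPM in tumor sphere shSigma libraries. It had 155, 137 and 129 CPM in adherent shCtrl and 87.5, 80.4 and 96.2 CPM in adherent shSigma libraries. No shSigma library reached the shCtrl range, with log2 fold changes of -0.74 (SE 0.0969, adjusted p = 6.14e-04) in adherent cells, while the tumor sphere value was -0.99 (SE 0.0658, adjusted p = 1.60e-07). The ATPase PSMC3 fell in both cultures as well, with log2 fold changes of -0.86 (adjusted p = 3.32e-05) and -0.35 (adjusted p = 3.19e-04).

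PSMC2 was the tested ATPase that was not called lower in either culture. It had 130.4, 110.0 and 106 CPM in adherent shCtrl and 117, 115 and 146 CPM in adherent shSigma libraries, which overlapped. The tumor sphere libraries had 102, 112 and 104 CPM with shCtrl and 142, 129.8 and 140.3 CPM with shSigma, and here every shSigma library was above every shCtrl library. Its log2 fold change was 0.055 (adjusted p = 0.707) in adherent cells, while the tumor sphere value was 0.37 (SE 0.0569, adjusted p = 1.48e-04). The 40 tested genes closest to PSMC2 had a median of 0.63 and 0.69. With that median subtracted the sign changed, to -0.57 (adjusted p = 0.00466) and -0.32 (adjusted p = 4.96e-04).

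The scaffold subunits PSMD1 and PSMD2, which hold the ubiquitin receptors and shuttles, fell in adherent cells, with log2 fold changes of -0.65 (adjusted p = 3.78e-04) and -0.63 (adjusted p = 1.55e-04). Their values in tumor spheres were -0.012 (adjusted p = 0.851) and -0.092 (adjusted p = 0.121). PSMD1 had 192, 179.9 and 176 CPM in adherent shCtrl and 119, 112 and 135 CPM in adherent shSigma libraries. PSMD1 had 157, 167 and 156 CPM in tumor sphere shCtrl and 165, 156 and 156 CPM in tumor sphere shSigma libraries. The adherent groups were apart and the tumor sphere groups overlapped. PSMD4, a ubiquitin receptor, fell in adherent cells with a log2 fold change of -0.30 (adjusted p = 0.00942).

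In the lid 7 of 8 genes were lower in adherent cells (median -0.52) and 5 of 8 in tumor spheres (median -0.28). That is 87.5% and 62.5%, against 27.7% and 30.9% of all genes. PSMD6, a structural subunit, was the lowest in both, with 99.2, 84.3 and 82.6 CPM in adherent shCtrl and 48.3, 49.7 and 55.5 CPM in adherent shSigma libraries. In tumor spheres it had 92.6, 96.2 and 91.1 CPM with shCtrl and 62.4, 56.6 and 56.1 CPM with shSigma. The groups were apart in both cultures, with log2 fold changes of -0.86 (SE 0.0969, adjusted p = 3.01e-04) and -0.68 (SE 0.0605, adjusted p = 1.73e-06).

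PSMD14, the enzyme that cuts off the ubiquitin chain, had 143, 128 and 119 CPM in adherent shCtrl and 75.1, 71.4 and 82.0 CPM in adherent shSigma libraries. It had 113, 118 and 118 CPM in tumor sphere shCtrl and 95.7, 88.2 and 95.2 CPM in tumor sphere shSigma libraries. It fell in both, with log2 fold changes of -0.84 (SE 0.0917, adjusted p = 2.64e-04) and -0.33 (SE 0.0543, adjusted p = 2.81e-04). PSMD7, its partner in the enzyme pair, had 178, 150.0 and 150.1 CPM in adherent shCtrl and 101, 96.9 and 111 CPM in adherent shSigma libraries, and 139, 155 and 144 CPM and 151, 136 and 147 CPM in the tumor sphere groups. It fell in adherent cells with a log2 fold change of -0.70 (SE 0.0917, adjusted p = 6.17e-04), and its tumor sphere groups overlapped, with -0.019 (adjusted p = 0.791). PSMD12 was the lid gene with the smallest difference in adherent cells, -0.16 (adjusted p = 0.154).

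Among the 7 assembly chaperones 2 fell and 1 rose in adherent cells (median -0.28), while 2 fell and 2 rose in tumor spheres (median -0.11). The share that fell, 28.6% in each culture, was close to the 27.7% and 30.9% of all genes. The shares that rose were 14.3% and 28.6%, against 22.3% and 30.2%. PSMG4, which helps to build the α ring, had 18.1, 17.9 and 20.1 CPM in adherent shCtrl and 23.8, 25.7 and 23.3 CPM in adherent shSigma libraries. It had 17.6, 20.2 and 21.3 CPM in tumor sphere shCtrl and 26.7, 24.7 and 25.4 CPM in tumor sphere shSigma libraries. The shSigma libraries were higher without overlap in both, with log2 fold changes of 0.32 (SE 0.0931, adjusted p = 0.0246) and 0.37 (SE 0.0879, adjusted p = 0.00303). Its call in adherent cells was lost with DESeq2.

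The chaperone PSMG2 fell in both cultures, with log2 fold changes of -0.37 (adjusted p = 0.00724) and -0.30 (adjusted p = 0.00166). PSMG1, its partner, fell in adherent cells, with -0.54 (adjusted p = 0.00477), the lowest of the chaperones there. PSMD10 (gankyrin), a chaperone of the base, was the lowest in tumor spheres, with -0.32 (adjusted p = 0.00409), and PSMD5, another chaperone of the base, rose there, with 0.22 (adjusted p = 0.00297). Of the regulators, PSME4 (PA200), an activator found in the nucleus, had 198, 199.7 and 185 CPM in adherent shCtrl and 141, 141 and 166 CPM in adherent shSigma libraries. It fell in adherent cells without overlap, with a log2 fold change of -0.45 (SE 0.0749, adjusted p = 0.00195), and its value in tumor spheres was -0.038 (adjusted p = 0.531). PSME3, the nuclear PA28γ, had log2 fold changes of -0.16 (adjusted p = 0.0971) and -0.0084 (adjusted p = 0.896). For PSMF1, which binds the core as an inhibitor in vitro, all shSigma libraries were above all shCtrl libraries in both cultures, and the log2 fold changes were 0.15 (adjusted p = 0.106) and 0.13 (adjusted p = 0.0531), neither past the threshold.

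Whether the change after knockdown differed between cultures was asked of all 12 libraries at once, by an interaction term that gives the tumor sphere change less the adherent change. 12 of the 40 members (30.0%) were called higher, against 12.7% of the 14175 genes tested, and 0 were called lower, against 15.6%. The median difference was 0.19 over the members and -0.034 over all genes. PSMB2 had the widest difference, 0.71 (SE 0.0887, adjusted p = 5.46e-05), followed by PSMD7 with 0.62 (SE 0.115, adjusted p = 0.00122) and PSMB6 with 0.60 (SE 0.109, adjusted p = 0.00104). In these genes the fall in adherent cells was the larger one. The other members called were PSMB5, PSMC3, PSMC5, PSMD1, PSMD2, PSMD11, PSMD14, PSMG1 and PSME4, with differences from 0.28 (adjusted p = 0.0195) for PSMD11 to 0.57 (adjusted p = 8.32e-04) for PSMD1. By role, 3 of 6 β, 4 of 8 base, 3 of 8 lid, 1 of 7 assembly and 1 of 3 regulator genes were called, and 0 of 7 α genes. PSMC6 had the lowest value outside PSMB10, -0.31 (adjusted p = 0.0782), and PSMA3 a value of -0.00069. The remaining extremes by role were -0.16 (PSMA2) and 0.30 (PSMA1) for the α subunits, 0.16 for PSMB1, -0.17 for PSMD8, -0.097 for PSMD10 and -0.07 for PSMF1, all not called. PSMB7 had 0.28 (adjusted p = 0.244) and PSME3 0.09 (adjusted p = 0.494). The count of members called higher was 20 without adherent shSigma replicate 3. The calls of PSMB5, PSMD11, PSMG1 and PSME4 were lost when single libraries were left out (highest adjusted p of 0.0921, 0.0642, 0.112 and 0.0534), for PSME4 without adherent shSigma replicate 1 alone.

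The same libraries were then compared by culture. In shCtrl cells 12 of the 40 members (30.0%) were lower in tumor spheres than in adherent cells, against 26.3% of 13800 genes, and 3 (7.50%) were higher, against 27.4%. In shSigma cells 2 (5%) were lower, against 25.2% of 13622 genes, and 12 (30.0%) were higher, against 21.9%. The median log2 ratio of tumor spheres to adherent cells was -0.12 over the members with shCtrl (0.037 over all genes) and 0.13 with shSigma (0.0025 over all genes). The adherent and tumor sphere libraries of these comparisons are those of the knockdown comparisons, so the values are not independent of them. The count of 12 lower with shCtrl rested on single libraries. It was 6 without adherent shCtrl replicate 2, 19 without adherent shCtrl replicate 3, 6 without tumor sphere shCtrl replicate 1 and 5 without tumor sphere shCtrl replicate 3. The count of 12 higher with shSigma was 19 without adherent shSigma replicate 3. Leaving out single libraries lost the calls of PSMA7, PSMB5, PSMC3, PSMC5, PSMD1, PSMD4, PSMD5, PSMD8, PSMD11 and PSMG1 with shCtrl, with highest adjusted p-values from 0.0577 (PSMD11) to 0.214 (PSMD8). With shSigma the calls of PSMD3, PSMD6, PSME3, PSME4 and PSMG2 were lost, where the highest adjusted p was 0.0610 for PSME3, 0.0688 for PSME4 and 0.117 for PSMD6.

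In shCtrl cells PSMB2 was the lowest β subunit in tumor spheres relative to adherent cells, with a log2 ratio of -0.59 (SE 0.0658, adjusted p = 1.91e-04), and PSMB5 and PSMB7 were lower too, with -0.22 (adjusted p = 0.0395) and -0.47 (adjusted p = 0.0150). PSMB6 had -0.22 (adjusted p = 0.0776) and PSMB4 0.0052 (adjusted p = 0.965). PSME4 was lower with -0.59 (adjusted p = 1.07e-04), PSMD2 with -0.28 (adjusted p = 0.00340), PSMG1 with -0.33 (adjusted p = 0.0285) and PSMD11 with -0.20 (adjusted p = 0.0113). PSMC6, the lid subunit PSMD8 and the α subunit PSMA7 were the 3 that were higher, with 0.40 (adjusted p = 0.00792), 0.23 (adjusted p = 0.0230) and 0.27 (adjusted p = 0.0248). With the median of the 40 closest tested genes (the local median) subtracted, only PSMC6 of these was called higher, PSMD8 came to 0.033 (adjusted p = 0.704), and PSMA7 turned to -0.17 (adjusted p = 0.127). The highest chaperone, PSMD9, had 0.22 (adjusted p = 0.389) and the lowest α subunit, PSMA1, -0.17 (adjusted p = 0.244). Among the other named regulators the ratio was 0.082 (adjusted p = 0.292) for PSME3 and 0.04 (adjusted p = 0.654) for PSMF1.

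In shSigma cells PSMD7 had the highest log2 ratio of the lid, 0.51 (SE 0.0585, adjusted p = 3.36e-04), PSMD1 the highest of the base, 0.41 (adjusted p = 0.00138), PSMB6 the highest of the β subunits, 0.41 (adjusted p = 5.89e-04), and PSMA7 the highest of the α subunits, 0.50 (adjusted p = 0.00750). PSME3 was higher as well, with 0.20 (adjusted p = 0.0127). PSME4 and PSMG2 were the 2 members called lower, with -0.22 (adjusted p = 0.0192) and -0.17 (adjusted p = 0.0334). With the local median subtracted neither was called, with -0.10 for PSME4 and 0.10 for PSMG2, and PSMA7 came to 0.15 (adjusted p = 0.274). The lowest values of the core were -0.16 for PSMB7 and -0.11 for PSMA2, neither called. The lowest of the base and lid were 0.038 for PSMD4 and -0.062 for PSMD12, and the highest chaperone was PSMG3 with 0.30 (adjusted p = 0.214). PSMB5 had 0.11 (adjusted p = 0.130) and PSMF1 -0.0079 (adjusted p = 0.908). PSMB10 had 1.22 (adjusted p = 0.105) with shCtrl and 0.61 (adjusted p = 0.455) with shSigma, from counts of 6 to 48 per library.

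Position on the chromosome moved with the result for several members. Chromosome 14 had the lowest median log2 fold change of 23 chromosomes after knockdown, -0.32 over 431 genes in adherent cells and -0.32 over 426 genes in tumor spheres. Of the 8 members there 5 were tested, and PSMA3, PSMB5, PSMC1 and PSMC6 were lower in both cultures. The 5 had a median of -0.76 in adherent cells and -0.70 in tumor spheres, and the 35 tested members elsewhere -0.42 and -0.11. Of those 35, 23 (65.7%) were called lower in adherent cells, against 27.7% of all genes tested. In tumor spheres 13 (37.1%) were called lower, not far from the 30.9% of all genes.

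When the local median (the log2 fold change at the middle of the 40 closest tested genes) was subtracted from each gene, the 4 genes of chromosome 14 stayed lower in both cultures. PSMB5, whose neighbours had a median of -0.68 in adherent cells and -0.64 in tumor spheres, came to -0.77 (adjusted p = 9.05e-05) and -0.44 (adjusted p = 1.42e-04). PSMC6 came to -0.39 and -0.54, PSMA3 to -0.45 and -0.36, and PSMC1 to -0.55 and -0.22. Over all 40 tested members, 30 were called lower and 1 higher in adherent cells after the subtraction, while 22 were called lower and 3 higher in tumor spheres. The share of all genes called after the subtraction is not given. Such counts, here and for the lists below, therefore have no reference over all genes. PSMA5 on chromosome 1 also had low neighbours, with medians of -0.47 and -0.50, and came to -0.55 (adjusted p = 0.00443) and -0.28 (adjusted p = 0.00351). PSMB2, PSMD6 and PSMC2 had neighbours at -0.48, -0.53 and 0.63 in adherent cells. Neighbours of PSMB6, PSMD7 and PSMD14 had medians of 0.031, -0.0022 and -0.056, so that the fall of these 3 genes in adherent cells was as large within their neighbourhood. After the subtraction PSMB5 was no longer the lowest member, as PSMB6 was lower in adherent cells and PSMC6 in tumor spheres. Why neighbouring genes moved together was not tested.

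**Figure D4:**
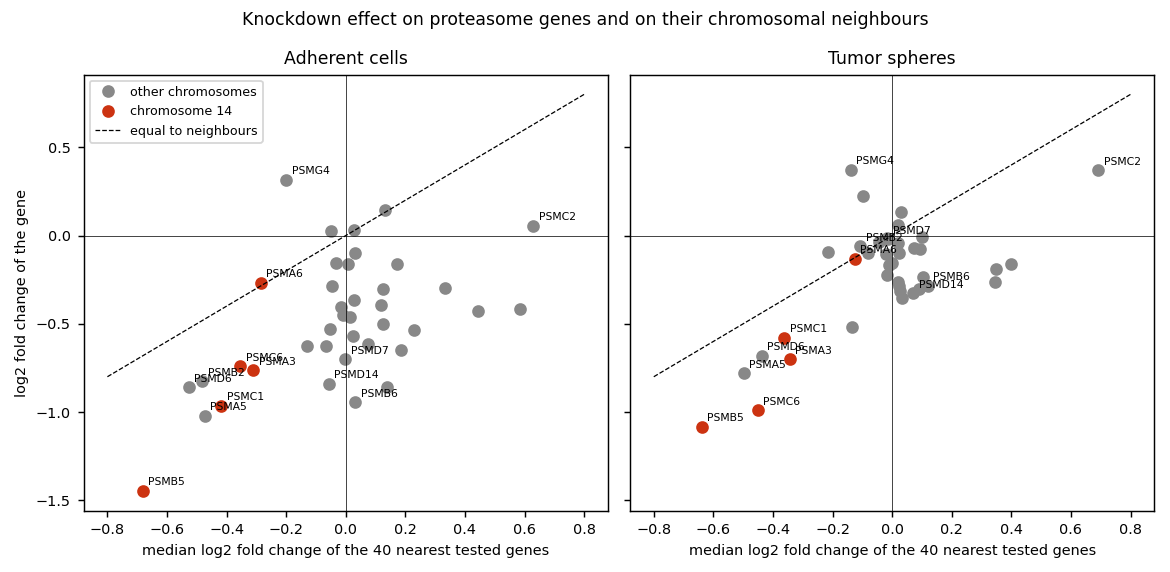
Log2 fold change of each tested member after σ1R depletion (vertical axis) against the median over its 40 closest tested neighbours (horizontal axis), in adherent cells and tumor spheres, with members on chromosome 14 in red. PSMB10, which has few counts, is not drawn. The dashed line marks equality, PSMB5 lies farthest left and lowest in both panels, and PSMC2 lies farthest right.

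Other genes of the pathway were followed by lists. Of 12 partners of the complex, 3 fell and 1 rose in adherent cells, while 1 fell and 5 rose in tumor spheres (medians -0.11 and 0.11), beside the shares of 27.7% lower and 22.3% higher over all genes in adherent cells and 30.9% and 30.2% in tumor spheres. With the local median subtracted, 3 were called lower and 0 higher in adherent cells, while in tumor spheres 2 were lower and 1 higher, with medians of -0.22 and -0.045. POMP, the chaperone that completes the core, had 129.7, 99.8 and 97.3 CPM in adherent shCtrl and 78.1, 77.7 and 89.3 CPM in adherent shSigma libraries. It fell in both cultures, with log2 fold changes of -0.48 (adjusted p = 0.0160) and -0.41 (adjusted p = 0.00215), and the call in adherent cells was lost without shSigma replicate 1 or 2 (highest adjusted p = 0.0812). PITHD1 was the lowest partner in adherent cells, with -0.58 (adjusted p = 9.05e-04), and UBE3C, a ligase that extends chains on stalled substrates, the highest in both, with 0.55 (adjusted p = 2.45e-04) and 0.50 (adjusted p = 4.62e-06). UBE3C lies among genes that were higher, and with its neighbours subtracted it came to -0.12 and -0.073.

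The deubiquitinases UCHL5 and USP14 differed between cultures. UCHL5 had a log2 fold change of 0.046 (adjusted p = 0.635) in adherent cells and rose in tumor spheres, with 0.49 (adjusted p = 1.89e-05), and the difference was 0.38 (adjusted p = 0.0114). With its neighbours subtracted UCHL5 was called lower in adherent cells, with -0.30 (adjusted p = 0.0125), and was not called in tumor spheres, with 0.038 (adjusted p = 0.590). USP14 had -0.15 (adjusted p = 0.177) in adherent cells and rose in tumor spheres, with 0.37 (adjusted p = 6.21e-05), and the difference was 0.46 (adjusted p = 0.00518). The ubiquitin receptor ADRM1 had 33.9, 45.6 and 61.6 CPM in adherent shCtrl and 48.2, 53.3 and 30.8 CPM in adherent shSigma libraries, a wide spread, with a log2 fold change of -0.14 (adjusted p = 0.714). In tumor spheres ADRM1 rose, with 0.50 (adjusted p = 0.00914), and the difference of 0.59 (adjusted p = 0.264) was not past the threshold. The rise was not called with the neighbours of ADRM1 subtracted, 0.10 (adjusted p = 0.521). SEM1, the smallest subunit of the lid, had 0.16 (adjusted p = 0.481) and 0.21 (adjusted p = 0.0619), and with its neighbours subtracted the tumor sphere value turned to -0.42 (adjusted p = 0.00192).

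Of 10 genes of transcriptional control, 4 fell and 2 rose in adherent cells, while 1 fell and 7 rose in tumor spheres, with medians of 0.15 and 0.50. The shares were 40% lower and 20% higher in adherent cells, against 27.7% and 22.3% of all genes. In tumor spheres they were 10% and 70%, against 30.9% and 30.2%. With the local median subtracted, 2 were called lower and 1 higher in adherent cells (median -0.059), while 1 was lower and 5 were higher in tumor spheres (median 0.22). NFE2L1 had 315, 344 and 386 CPM in adherent shCtrl and 289, 303 and 276 CPM in adherent shSigma libraries. The tumor sphere libraries had 335, 297 and 346 CPM with shCtrl and 360.1, 358 and 361 CPM with shSigma. It fell in adherent cells, with a log2 fold change of -0.33 (adjusted p = 0.0158), its value in tumor spheres was 0.14 (adjusted p = 0.0724), and the difference was 0.41 (adjusted p = 0.0134). The call of NFE2L1 in adherent cells was lost without shSigma replicate 1 or 2 or shCtrl replicate 2 (highest adjusted p = 0.113). DDI2, the protease that activates NFE2L1, fell in adherent cells, with -0.68 (adjusted p = 2.13e-04), had -0.1 (adjusted p = 0.217) in tumor spheres and differed by 0.52 (adjusted p = 0.00158). With its neighbours subtracted the difference of DDI2 was 0.28 (adjusted p = 0.0566) and its tumor sphere value -0.23 (adjusted p = 0.0126). NGLY1, which removes its sugars, fell in both, with -0.34 (adjusted p = 0.0365) and -0.33 (adjusted p = 0.00310), and with its neighbours subtracted it came to 0.29 and 0.18. In adherent cells the call of NGLY1 was lost without replicate 1 or 2 of either group (highest adjusted p = 0.206).

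NFE2L2, the master factor of the oxidative stress response, fell in adherent cells, with -0.43 (adjusted p = 0.0102), rose in tumor spheres with overlapping groups, 0.14 (adjusted p = 0.0463), and differed by 0.50 (adjusted p = 0.00872). Its calls were lost without replicate 1 or 2 of either adherent group (highest adjusted p = 0.0871) and without any tumor sphere library but shCtrl replicate 2 (highest adjusted p = 0.147), and with its neighbours subtracted the adherent value was -0.29 (adjusted p = 0.0517). BACH1, a repressor that competes with NFE2L2 for its sites, was the highest of the list in both cultures. It had 46.5, 49.4 and 43.6 CPM in adherent shCtrl and 88.4, 92.0 and 106 CPM in adherent shSigma libraries, and 53.3, 50.8 and 50.1 CPM and 103, 102 and 107 CPM in the tumor sphere groups. Its log2 fold changes were 0.97 (adjusted p = 9.79e-05) and 1.01 (adjusted p = 3.81e-08). The shared partner MAFF was the lowest of the list between cultures, with log2 ratios of tumor spheres to adherent cells of -1.02 (adjusted p = 2.63e-04) in shCtrl and -0.71 (adjusted p = 7.02e-04) in shSigma cells.

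Of 11 genes of ubiquitin and substrate delivery, 3 fell and 0 rose in adherent cells, while 5 fell and 1 rose in tumor spheres. For adherent culture this is 27.3% falling and 0% rising, beside 27.7% and 22.3% of all genes. For spheres it is 45.5% and 9.09%, beside 30.9% and 30.2%. After the local median was subtracted, 4 of these genes fell and 1 rose in the adherent comparison. The sphere comparison then had 5 that fell and 0 that rose. VCP, the unfoldase that hands substrates to the proteasome, fell in both, with -0.25 (adjusted p = 0.0247) and -0.13 (adjusted p = 0.0350), but its tumor sphere value turned to 0.014 (adjusted p = 0.823) with its neighbours subtracted. Both calls of VCP were lost when single libraries were left out (highest adjusted p = 0.348 and 0.118), replicate 1 or 2 of either adherent group and any tumor sphere library but shCtrl replicate 2. Its cofactor UFD1 was the lowest of the list in adherent cells, with -0.50 (adjusted p = 0.00556), and RPS27A, which encodes ubiquitin fused to a ribosomal protein, the lowest in tumor spheres, with -0.34 (adjusted p = 0.0120). The highest value in adherent cells was 0.17 (adjusted p = 0.0664) for UBQLN2, a shuttle that carries substrates. NPLOC4, another cofactor of VCP, was the highest in tumor spheres, where it rose with 0.21 (adjusted p = 0.00597), and with its neighbours subtracted it came to -0.15. 0 of the 11 differed between cultures after knockdown.

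Of 10 heat shock genes 7 were tested, of which 1 fell and 2 rose in adherent cells, while 1 fell and 3 rose in tumor spheres. The shares were 14.3% lower and 28.6% higher in adherent cells, against 27.7% and 22.3% of all genes. In tumor spheres they were 14.3% and 42.9%, against 30.9% and 30.2%. With the local median subtracted, 1 was lower and 2 higher in adherent cells, and 2 were lower and 2 higher in tumor spheres. HSPA1A and HSPA1B were listed at 0 in all libraries, and HSF1 had at most 1 count in any library. HSPH1, a nucleotide exchange factor of HSP70, had 36.7, 32.4 and 30.8 CPM in adherent shCtrl and 54.8, 54.8 and 60.8 CPM in adherent shSigma libraries, and 35.3, 34.3 and 26.4 CPM and 75.8, 81.2 and 78.2 CPM in the tumor sphere groups. It rose in both, with 0.71 (adjusted p = 6.58e-04) and 1.29 (adjusted p = 6.88e-07), and the rise was larger in tumor spheres by 0.52 (adjusted p = 0.0160). The cochaperone BAG3 rose in both as well, with 0.88 (adjusted p = 3.26e-04) and 0.83 (adjusted p = 5.24e-07). HSP90AA1, on chromosome 14, fell in both, with -0.44 (adjusted p = 0.00762) and -0.56 (adjusted p = 1.88e-05), and its call in adherent cells was lost without shSigma replicate 1 or 2 or shCtrl replicate 2 (highest adjusted p = 0.0785).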

How the data were processed

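RNA-seq of 3 biological replicates for each of 4 groups of DU145 cells was used. Per the labels, the authors prepared directional libraries of 800 ng RNA, read 75 bases from one end and deposited raw counts per gene without normalization. The submitters' processing notes name STAR 2.6.1c, DESeq and GRCh38.p12. The annotation, the use of strand and the handling of multiply aligned reads are not given in the sources used here. 26153 of 28747 identifiers had a symbol in GENCODE release 44, and 0 sample columns were left unused.

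Deposited counts were scaled by TMM and filtered with filterByExpr (minimum count 10). Each comparison of 2 groups was fitted on its own, and the interaction over all 12 libraries, with edgeR 4.0.16 (limma 3.58.1, R 4.3.3) by the two-sided quasi-likelihood test. P-values were adjusted by Benjamini-Hochberg across every tested gene, and calls were made where the adjusted p was below 0.05. Fold changes used a prior count of 0.125. CPM per kilobase used the canonical transcript length. The smallest exact permutation p for 3 against 3 libraries is 0.1. Procedures were tested on simulated counts with 200 changed genes. Replicates of a group differed by more than sampling noise (chi-square per gene 2.73 to 43.9), and all were kept as separate samples. A group at no more than 3 counts was taken as at the floor, which covers counting error only.

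The members and lists were chosen with earlier results of these data known. Named are the lowest and highest member of each role and of each list per comparison, members past a log2 fold change of 1, the active sites and regulators, members that were not tested, and the main genes of the lists. Some genes are not reported here and were left out of the lists. Other genes named were chosen after their values were seen. The alternatives comprised other scalings (size factors of DESeq2 1.42.0, upper-quartile), the DESeq2 test, other filters on low counts, 1 fit of all libraries, the replicate block, the subtraction of the median of the 40 closest tested genes and each library left out in turn. Tables and plots used Python 3.11.15, pandas 2.3.3 and matplotlib 3.10.9.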

Additional observations from a re-analysis of the deposited data

Results flagged for a closer look

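The log2 fold change after knockdown differed between tumor spheres and adherent cells in 12 members and 7 genes of the pathway lists by the interaction test. Over all genes this test called 12.7% higher and 15.6% lower. Among the 40 tested members 30% were called higher. The genes of the lists were 3 of 12 partners, 3 of 10 genes of transcriptional control and 1 of 7 heat shock genes, with 0 of 11 genes of ubiquitin and delivery. For the members the difference, tumor spheres minus adherent cells, was 0.71 for PSMB2, 0.35 for PSME4, 0.45 for PSMD14, 0.57 for PSMD1, 0.47 for PSMD2, 0.45 for PSMC3, 0.30 for PSMB5, 0.62 for PSMD7, 0.60 for PSMB6, 0.28 for PSMD11, 0.48 for PSMC5 and 0.37 for PSMG1. In all 12 the change was less negative in tumor spheres. For the other genes the difference was 0.52 for DDI2, 0.46 for PITHD1, 0.38 for UCHL5, 0.50 for NFE2L2, 0.52 for HSPH1, 0.41 for NFE2L1 and 0.46 for USP14.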

How the results depend on the processing

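Over the alternatives that keep all libraries, members called lower after knockdown numbered 26 to 30 in adherent cells and 15 to 22 in spheres. The interaction gave 10 to 17 called higher. In tumor spheres 3 were called higher in each, but with the 40-gene subtraction these were not the same 3. PSMC2 was then called lower in tumor spheres, with -0.32 (adjusted p = 4.96e-04), and PSMD2 higher, with 0.12 (adjusted p = 0.0488). The single member called higher in adherent cells became 0 with DESeq2 and with the replicate block, and 2 with upper-quartile factors and in 1 fit of all 12 libraries. Between cultures in shCtrl cells the 12 called lower became 7 with upper-quartile factors and 6 with the replicate block, and the 3 called higher became 1 with the 40-gene subtraction. In shSigma cells the 2 called lower became 0 with DESeq2 and 1 with upper-quartile factors, with no filter on low counts and in 1 fit. The interaction median of 0.19 became 0.27 with no filter, 0.26 with at least 10 counts in every library and 0.32 with the subtraction, which also gave 1 member called lower.

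With 1 library left out, the ranges in adherent cells were 24 to 29 lower, 0 to 2 higher and a median of -0.51 to -0.37. In tumor spheres they were 14 to 20 lower, 3 to 4 higher and -0.22 to -0.10. Between cultures they were 5 to 19 lower, 1 to 4 higher and -0.22 to -0.087 with shCtrl, and 0 to 2 lower, 9 to 19 higher and 0.095 to 0.18 with shSigma. The interaction gave 0 to 1 lower, 9 to 20 higher and 0.18 to 0.30.

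Reversals came from the subtraction of the median of the 40 nearest tested genes. In adherent cells it gave -0.30 for UCHL5, 0.29 for NGLY1, -0.57 for PSMC2, -0.12 for UBE3C and -0.025 for SYVN1. In tumor spheres it gave 0.18 for NGLY1, 0.12 for PSMD2, -0.14 for HSPB1, -0.42 for SEM1, -0.32 for PSMC2, -0.073 for UBE3C, 0.014 for VCP, -0.017 for ZFAND5 and -0.15 for NPLOC4. Between cultures it gave -0.54 for NPLOC4, -0.13 for DNAJB1, -0.26 for PSMF1 and -0.17 for PSMA7 with shCtrl, and -0.38 for PSMD13, -0.51 for NPLOC4, 0.10 for PSMG2, -0.42 for DNAJB1 and -0.26 for UFD1 with shSigma. The cause of these moves was not tested. Same-numbered libraries did not pair (correlations of deviations -0.85 to 0.43, over 0.1 in 5 of 18 pairs, 4 of 18 best with their own number), and the fit with the replicate block called 26 members lower in adherent cells and 17 in tumor spheres. Depth limits PSMB10, with 6 to 48 counts.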

Other observations

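Between cultures the pathway lists gave the following values, as log2 ratios of tumor spheres to adherent cells. Over all genes the shares called were 26.3% lower and 27.4% higher with shCtrl, and 25.2% and 21.9% with shSigma. Of 12 partners of the proteasome 5 were lower and 1 higher in shCtrl cells and 2 were lower and 3 higher in shSigma cells. These were 41.7% and 8.33% with shCtrl, and 16.7% and 25% with shSigma. USP14 was the lowest with shCtrl, -0.64 (adjusted p = 1.35e-04), and ZFAND5, which stimulates degradation, the highest, 0.40 (adjusted p = 0.00166). With shSigma PAAF1, an assembly factor of the base, was the lowest, -0.33 (adjusted p = 0.00777), and ADRM1 the highest, 0.92 (adjusted p = 0.0283). UBE3C had the lowest difference of the knockdown effect between cultures among the partners, -0.10 (adjusted p = 0.407). Of 10 genes of transcriptional control 2 were lower and 1 higher in shCtrl and 1 was lower and 4 higher in shSigma cells, with MAFK at 0.62 (adjusted p = 0.184) in shCtrl and MAFG at 0.73 (adjusted p = 0.00589) in shSigma cells as the highest. MAFK varied widely between replicates, with 30.2, 44.9 and 80.6 CPM in adherent shCtrl libraries, and its difference of the knockdown effect was -0.14 (adjusted p = 0.895).

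Of 11 genes of ubiquitin and delivery 3 were lower and 1 higher in shCtrl and 1 was lower and 2 higher in shSigma cells. These were 27.3% and 9.09% with shCtrl, against 26.3% and 27.4% over all genes, and 9.09% and 18.2% with shSigma, against 25.2% and 21.9%. UBA6, a ubiquitin-activating enzyme, was the lowest with shCtrl, -0.35 (adjusted p = 0.00168), and UBB, a gene of linked ubiquitin repeats, the highest, 0.32 (adjusted p = 0.0304). With shSigma these were RPS27A, -0.32 (adjusted p = 0.00657), and UBB, 0.35 (adjusted p = 0.00833). The differences of the knockdown effect ran from -0.14 (RAD23B) to 0.22 (UFD1).

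Of the 7 heat shock genes tested 5 were higher in tumor spheres than in adherent cells in each arm and 0 were lower. The share higher was 71.4% in each arm, against 27.4% of all genes with shCtrl and 21.9% with shSigma. The shares lower over all genes were 26.3% and 25.2%. HSPA8, the constitutive HSP70, had 1067, 917 and 931 CPM in adherent shCtrl and 1684, 1659 and 1402 CPM in tumor sphere shCtrl libraries, without overlap, and log2 ratios of 0.70 (adjusted p = 6.36e-04) with shCtrl and 0.78 (adjusted p = 1.03e-04) with shSigma. HSPB1 had the highest ratio in both arms, 1.29 (adjusted p = 0.0407) and 1.29 (adjusted p = 0.0633), with 58.9, 62.1 and 18.9 CPM in the adherent shSigma libraries. HSPH1 was the lowest with shCtrl, -0.059 (adjusted p = 0.719), and HSP90AA1 with shSigma, 0.016 (adjusted p = 0.852). DNAJB1 had the lowest difference of the knockdown effect, -0.23 (adjusted p = 0.120). The calls of UBB and HSPB1 with shCtrl and of ADRM1 with shSigma were lost when single libraries were left out (highest adjusted p of 0.130, 0.131 and 0.0802). With the local median subtracted the heat shock genes called higher were 3 with shCtrl and 4 with shSigma, and the calls of HSPB1 and UBB with shCtrl and of ADRM1 and MAFG with shSigma were lost (adjusted p of 0.0695, 0.0553, 0.112 and 0.697). HSPA8 was named after its values were seen.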
